A study of Mus musculus with 6 samples.

Results

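Trib3, Nupr1, Ddit4, Txnip and Cdkn1a are genes that mammalian cells switch on or off with the supply of nutrients and energy, and they were followed liver by liver in mice given gigantol or its vehicle. The genes were taken by symbol, and all 5 are among the 332 genes of the authors' deposited table. That table had been selected on the gigantol and vehicle livers described here, since no gene in it has an absolute log2 fold change under 1.00 or an unadjusted p over 0.0499. The 5 were picked from it with their values known, so the differences below are a description and not evidence of an effect. Of the 5, 4 were lower in the gigantol livers (Trib3, Nupr1, Ddit4 and Txnip) and 1 was higher (Cdkn1a).

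The mice were males of the outbred Kunming stock, aged 6 to 8 weeks and weighing 20 to 28 g. The gigantol group (3 mice) had taken 10 mg/kg of gigantol by mouth, and the vehicle group (3 mice) the same volume of vehicle. All were killed 4 h later, and each gave 1 liver and 1 library with the same batch label. Gigantol is a plant bibenzyl that the series title calls a dual agonist of PPARα and PPARγ, nuclear receptors that respond to fatty acids. PANC1, the name of a human cell line from pancreatic cancer, stands in the titles of the samples, but their organism, tissue and treatment labels are those of mouse liver and the gene IDs are mouse. Groups follow the treatment label.

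All 5 genes answer to nutrient supply or stress. When amino acids run low or proteins misfold in the endoplasmic reticulum, kinases phosphorylate the initiation factor eIF2α, and translation of the transcription factor ATF4 goes up; Trib3, Nupr1 and Ddit4 are among its known targets. Txnip is switched on by glucose through the factors MondoA and ChREBP and is repressed by insulin in liver. Cdkn1a is the classical target of p53, and in liver it also responds to glucocorticoids, the clock and fasting.

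Stretches upstream of the RefSeq gene starts are shown first, because 4 of the 5 genes were lower together and their known regulators bind short motifs. RefSeq (GRCm38.p6) gave 6 start windows for the 5 genes, with 2 for Cdkn1a, and the 250 bases before each start were searched on both strands. The motifs were chosen with the biology of these genes in mind. In the Txnip line the capitals mark, in order, a CCAAT box on the reverse strand, a FOXO site, a second CCAAT box, and a pair of E-box-like motifs with 5 bases between them. The FOXO letters searched were GTAAACA. Each E-box-like motif reads CACGNG. In the Nupr1 line they mark a C/EBP-ATF composite element (TGATGNAA, here on the reverse strand), the type of site that ATF4 binds, and a GC box (GGGCGG). In the Cdkn1a line they mark 2 copies of CATG with 6 bases between them, the core of a p53 site, upstream of the more distal of its 2 starts. In the Ddit4 line they mark 2 CCAAT boxes on the reverse strand, and in the Trib3 line 3 GC boxes.
Txnip, chr3:96557807-96557956, plus strand: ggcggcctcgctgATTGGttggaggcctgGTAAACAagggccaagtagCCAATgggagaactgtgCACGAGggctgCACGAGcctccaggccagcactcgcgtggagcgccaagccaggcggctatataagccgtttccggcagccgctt
Nupr1, chr7:126625541-126625600, minus strand: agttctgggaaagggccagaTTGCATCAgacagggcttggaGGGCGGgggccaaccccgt
Cdkn1a, chr17:29090919-29090978, plus strand: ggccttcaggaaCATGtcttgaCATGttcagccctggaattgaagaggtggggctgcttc
Ddit4, chr10:59951891-59951950, minus strand: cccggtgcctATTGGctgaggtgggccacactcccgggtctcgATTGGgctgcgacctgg
Trib3, chr2:152344061-152344180, minus strand: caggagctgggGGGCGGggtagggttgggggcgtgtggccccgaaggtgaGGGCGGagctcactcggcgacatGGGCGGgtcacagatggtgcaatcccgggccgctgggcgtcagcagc

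The CACGNG pair of Txnip, which has the layout of a carbohydrate response element, spans bases 85 to 69 before the start and occurred in 15 of 32851 windows of the same length (0.0457%). The spaced CATG pair of Cdkn1a occurred in 0.490% of windows, the composite element of Nupr1 in 3.45% and the FOXO letters of Txnip in 3.17%. GC boxes and CCAAT boxes were common, in 32.7% and 33.8% of windows. An E-box (CACGTG) stood in the Nupr1 window, 225 bases before its start, and TATAAA in the Trib3 window, 166 bases before its start. Their shares over all windows were 6.02% and 12.4%. For the TATA box only the letters TATAAA were searched, so the tatataa in the Txnip line was not counted. The GC box was the 1 motif searched that each of the 5 genes held, in 5 of their 6 windows, and every other motif stood at 1 or 2 of the genes. A match describes letters, not a bound site.

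**Figure D1:**
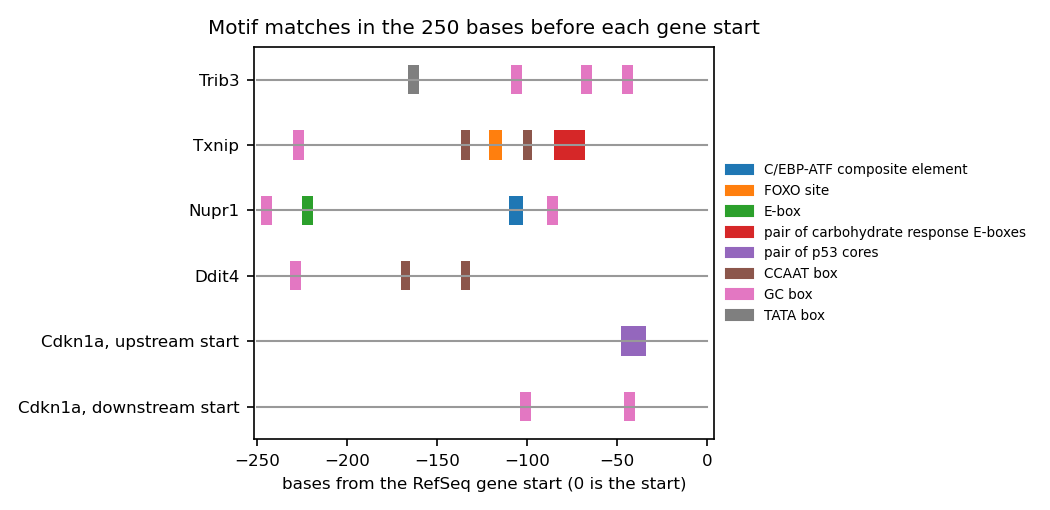
Motif matches in the 250 bases before the 6 RefSeq start windows of the 5 genes. The x axis is the distance in bases from the gene start and each coloured block is 1 match on either strand; the composite element lies in the Nupr1 window alone, the carbohydrate response pair in the Txnip window and the p53 pair before the upstream Cdkn1a start.

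Expression is given as CPM, the reads of a gene scaled to the size of its library. One read was worth 0.0374 to 0.0471 CPM, which puts the libraries at about 21200000 to 26700000 reads and makes 3 reads 0.112 to 0.141 CPM. Each member had at least 1 CPM in 3 libraries. None of the 8 hepatocyte markers listed was analysed here, so the tissue label was not checked against them, and the 5 pancreatic markers were not analysed here either. The livers hold several cell types, and fewer cells of a type and less RNA per cell cannot be told apart in these values.

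Trib3 encodes a tribbles pseudokinase that binds the kinase AKT and dampens insulin signalling, and it is made when ATF4 is active. The gigantol livers had 8.80, 7.56 and 12.0 CPM and the vehicle livers 21.3, 17.4 and 22.9 CPM. All 3 gigantol livers thus lay below all 3 vehicle livers, and the lowest vehicle liver was 1.45 times the highest gigantol liver. The means were 9.46 ± 2.31 and 20.5 ± 2.83 CPM (SD, n = 3 each), so the vehicle mean was 2.17 times the gigantol mean. The limma difference on the log2(CPM + 1) scale was −1.06 ± 0.42 (SE), and the authors' deposited table gives a log2 fold change of −1.11 and an FDR of 0.00135. Trib3 (ENSMUSG00000032715) lies on the minus strand of chromosome 2 from 152179342 to 152185952, on the mouse build of the deposited table, which is not named there.

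Nupr1 encodes a small nuclear protein that is induced by many cell stresses and takes part in the response to starvation. It was the scarcest of the 5 in read number, with 2.59, 0.516 and 0.528 CPM in the gigantol livers and 8.99, 3.17 and 5.25 CPM in the vehicle livers. The groups did not overlap, but gigantol replicate 1 came close to vehicle replicate 2. The exact Poisson 95% intervals of these livers overlapped, at 1.95 to 3.37 CPM and 2.52 to 3.94 CPM. The 0.516 CPM of gigantol replicate 2 were 11 reads, with an exact Poisson 95% interval of 0.258 to 0.924 CPM, and the 0.528 CPM of gigantol replicate 3 were 13 reads, with an interval of 0.281 to 0.904 CPM; these intervals cover counting error only. The means were 1.21 ± 1.19 and 5.80 ± 2.95 CPM (SD, n = 3 each), 4.79 times higher in vehicle. Without gigantol replicate 1 the gigantol mean was 0.522 CPM and the ratio 11.1. The limma difference was −1.66 ± 0.45 (SE) on the log2(CPM + 1) scale, which understates changes of low genes, and the authors' deposited table gives −2.25 and an FDR of 0.0473. Nupr1 (ENSMUSG00000030717) spans chromosome 7 from 126222421 to 126230033, minus strand, with 6 transcripts listed.

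Ddit4 encodes REDD1, which restrains the growth kinase complex mTORC1 through the TSC proteins under low energy, hypoxia or glucocorticoids. Vehicle livers were close together at 51.1, 39.5 and 47.8 CPM. Gigantol livers were far apart at 14.3, 6.67 and 31.6 CPM, each below every vehicle liver. The coefficient of variation was 73.0% in the gigantol group and 12.9% in the vehicle group. Means were 17.5 ± 12.8 and 46.1 ± 5.95 CPM (SD, n = 3 each), and the vehicle mean was 2.63 times the gigantol mean, or 4.41 times without gigantol replicate 3. Ddit4 had a limma difference of −1.59 ± 0.56 (SE) on the log2(CPM + 1) scale. It did not pass in the authors' deposited table, where the log2 fold change is −1.40 and the FDR 0.159. The gene (ENSMUSG00000020108) is compact, from 59785491 to 59787656 on the minus strand of chromosome 10, with 1 transcript listed.

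Txnip encodes an α-arrestin that binds thioredoxin and takes glucose transporters off the cell surface. It read 60.8, 79.6 and 79.4 CPM in the gigantol livers against 222, 124 and 119 CPM in the vehicle livers. The gigantol livers were alike and all below the vehicle group, in which vehicle replicate 1 stood well above the other two. Means were 73.2 ± 10.8 and 155 ± 57.8 CPM (SD, n = 3 each). The vehicle mean was 2.12 times the gigantol mean, and 1.66 times without vehicle replicate 1. The limma difference was −1.02 ± 0.49 (SE) on the log2(CPM + 1) scale, and the authors' deposited table gives −1.08 and lists an FDR of 0.0261. Txnip (ENSMUSG00000038393) lies on the plus strand of chromosome 3 from 96465273 to 96469199.

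In the GENCODE annotation of GRCm38, the antisense gene Gm15441 covers all 3927 bases of Txnip on the other strand. The libraries were stranded, per the labels' protocols, but the sources used here do not say whether the authors counted by strand. Gm15441 was not analysed here, so its part in the Txnip reads was not tested. Cdkn1a has an unclassified locus on its opposite strand over 1046 of its 9752 bases, and no annotated gene overlaps Trib3, Nupr1 or Ddit4.

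Cdkn1a encodes p21, an inhibitor of cyclin-dependent kinases that halts the cell cycle, and it was the only one of the 5 with a higher mean in the gigantol livers. Those livers had 22.8, 10.5 and 28.9 CPM, and the vehicle livers 14.0, 5.55 and 4.86 CPM. The groups overlapped: gigantol replicate 2 lay below vehicle replicate 1. Means were 20.8 ± 9.39 and 8.14 ± 5.09 CPM (SD, n = 3 each), a ratio of 2.55 that became 3.99 without vehicle replicate 1. Without gigantol replicate 2, or without vehicle replicate 1, the groups no longer overlapped, a comparison made after seeing the data. The limma difference was 1.28 ± 0.52 (SE) on the log2(CPM + 1) scale. The authors' deposited table gives 1.35 and lists an FDR of 0.210, which does not pass 0.05. Cdkn1a (ENSMUSG00000023067) lies on the plus strand of chromosome 17 from 29309950 to 29319701, with 5 transcripts listed.

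**Figure D2:**
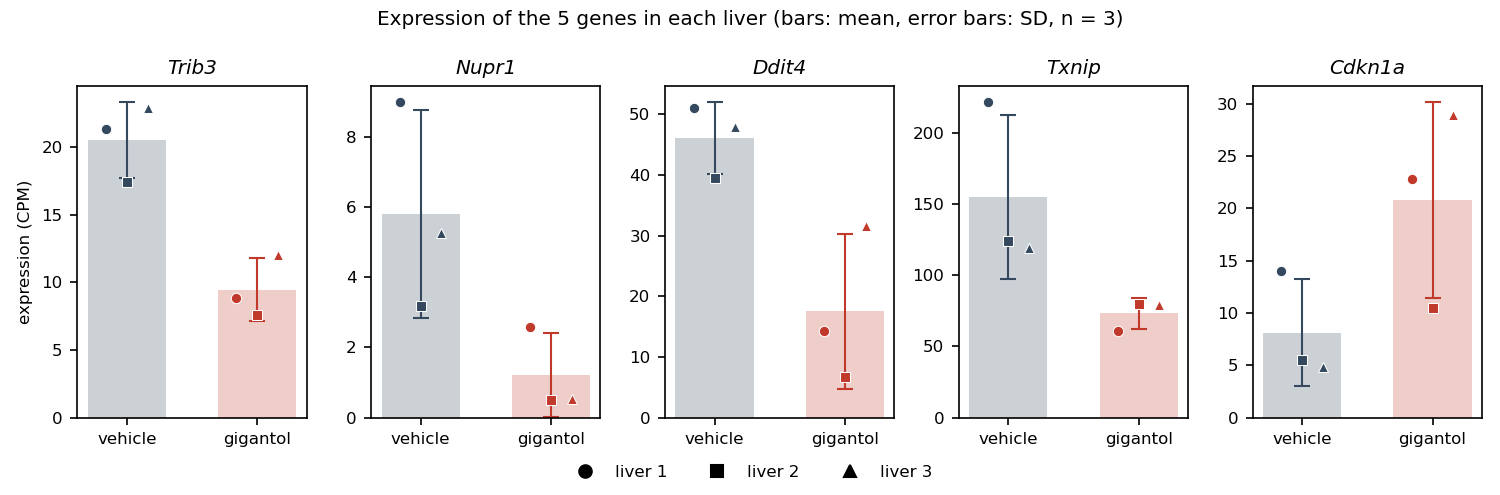
Expression in CPM (y axis, separate for each gene) of the 5 genes in 3 vehicle and 3 gigantol livers. Bars are means, error bars SD and symbols single livers; the gigantol symbols lie below all vehicle symbols for Trib3, Nupr1, Ddit4 and Txnip, and overlap them for Cdkn1a.

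The authors adjusted over 13192 genes, and at an FDR under 0.05 in the authors' deposited table Trib3, Nupr1 and Txnip passed, all 3 downward, and Ddit4 and Cdkn1a did not pass. Of the 332 table genes 15.7% passed downward and 10.2% upward; of the 13192 genes at least 0.925% passed in either direction. All 4 lower members had groups that did not overlap, a pattern that 48.5% of the table genes showed downward and 23.5% upward. Both counts come from the contrast on which the table was selected, and nothing is read from them. Only 201 table genes had a limma p, adjusted over the same 13192 genes. Past 0.05 were 9 of the 201 and 0 of the 5 members. The 9 are 0.0682% of the 13192 genes, most of which could not be fitted. Genes without a limma p were ranked last, so the 9 are a minimum and each limma adjusted p is an upper limit. Unadjusted, 4 of the 5 members had a limma p under 0.05 (Txnip at 0.0608 did not), as had 145 of the 201 (72.1%). Trib3 and Txnip sit near the fold limit of the table, and the median log2 fold change of its 213 lower genes in the authors' deposited table was −1.40.

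The 5 genes did not vary alike among the livers of 1 group. Gigantol replicate 2 was the lowest gigantol liver for Trib3, Nupr1, Ddit4 and Cdkn1a, and it was the lowest for 40.1% of the table genes. Vehicle replicate 1 was the highest vehicle liver for Nupr1, Ddit4, Txnip and Cdkn1a, and for 39.2% of the table genes. Cdkn1a, which was higher in the gigantol group, had the liver order of Trib3 and Ddit4 within it: all 3 had gigantol replicate 3 highest and replicate 2 lowest. Gigantol livers were 4.75-fold apart for Ddit4 and 5.02-fold for Nupr1, against 1.59-fold for Trib3 and 1.31-fold for Txnip. In the vehicle group the ratio of highest to lowest was 2.88 for Cdkn1a and 2.84 for Nupr1, against 1.29 for Ddit4.

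**Figure D3:**
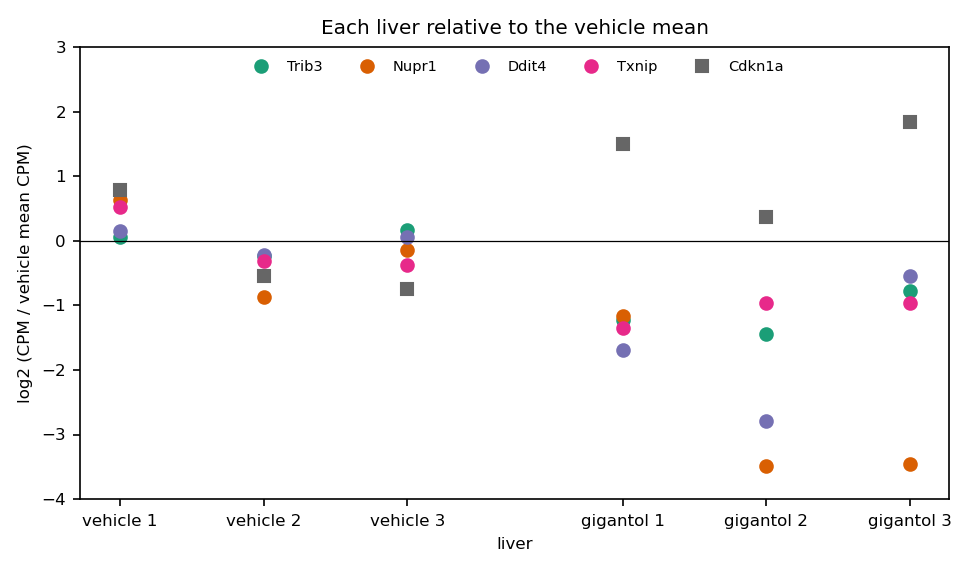
Each liver's CPM divided by the vehicle mean of that gene, on a log2 scale (y axis), for the 6 livers (x axis). Circles are the 4 lower genes and squares Cdkn1a; Ddit4 and Nupr1 spread most among the gigantol livers, and all 4 lower genes lie below 0 in each of them.

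To see which genes ran closest to each member, log2(CPM + 1) values were centred on the gene's own mean over the 6 livers, and the mean absolute difference between profiles was taken over the 213 other genes whose mean reached 1 CPM. All these genes share the libraries and the selection, so this is a description. Trib3 was closest to Clca3a1 (0.08 log2 units), Mycl and Des (0.16 each). Clca3a1 read 5.13, 4.83 and 6.79 CPM in the gigantol and 12.4, 11.3 and 12.6 CPM in the vehicle livers. The nearest profile to Ddit4 was that of Dusp1, a phosphatase that switches off MAP kinases (0.27 log2 units), followed by Gm8730 and Trim5 (0.31 each). Dusp1 was at 20.7, 9.20 and 32.0 CPM against 32.9, 45.4 and 51.1 CPM, with the same order of gigantol livers as Ddit4, and did not pass in the authors' deposited table (FDR 0.317).

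Txnip ran closest to the class I gene H2-T10 (0.12 log2 units), then to Orm3 and Smpd3 (0.15 each). Cdkn1a ran closest to Gpcpd1, a glycerophosphocholine phosphodiesterase (0.15), then to Sec14l4 (0.19) and Ppp1r10, a nuclear regulator of protein phosphatase 1 (0.21). Gpcpd1 was at 161, 122 and 243 CPM in the gigantol and 110, 52.2 and 42.4 CPM in the vehicle livers, so it had the liver order of Cdkn1a in both groups. Ppp1r10 was at 37.7 ± 15.2 against 14.2 ± 3.54 CPM (SD, n = 3 each), and the authors' deposited table lists an FDR of 0.00753. Among the members themselves the closest were Trib3 and Txnip (0.30), then Trib3 and Ddit4 (0.42).

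Nupr1 ran closest to Ppbp, a platelet chemokine (0.28 log2 units), then to Ppp1r3g, a glycogen-targeting phosphatase subunit (0.34), and Thbs1 (0.38). Ppbp read 1.51, 0.657 and 0.772 CPM in the gigantol and 9.44, 3.75 and 3.64 CPM in the vehicle livers. Of 3 platelet markers, Ppbp and Pf4 were analysed here, and their summed level was 1.38 to 2.59 CPM in the gigantol and 5.55 to 11.6 CPM in the vehicle livers. Of 6 Kupffer cell markers Marco alone was analysed here, at 1.54 to 3.71 against 8.21 to 8.89 CPM. The 2 of 6 stellate markers analysed here, Lrat and Des, summed to 6.81 to 11.9 against 13.1 to 24.5 CPM. Of 5 T and NK cell markers Cd8a and Nkg7 summed to 0.424 to 0.657 against 1.27 to 1.65 CPM, and Cd79a, 1 of 4 B cell markers, was at 0.141 to 0.282 against 0.347 to 0.749 CPM. The 4 globins of 5 erythroid markers summed to 347 to 632 against 552 to 1909 CPM. No marker analysed here was at 0 in any liver, though Cd8a lay under 3 reads in gigantol replicate 1 (0.0940 CPM). All 12 markers analysed here, of 64 listed, had lower means in the gigantol livers, with overlapping groups for 3 of the globins. The 12 come from the table selected on this contrast, where 213 of the 332 genes were lower. Nothing is read from that count, and the part of the markers in the members' values was not tested. The other 7 of the 13 marker lists had no gene among those analysed here.

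The pathways around the members were taken from 18 lists with 299 distinct symbols, of which 21 were analysed here, 5 of them the members. Few relatives of the 5 genes were among them. All 21 come from the table selected on this contrast, so the counts by list below are a description. Of the 33 ATF4 targets, 4 were analysed here, namely the 3 members and Vldlr, a receptor that takes up lipoproteins under stress. All 4 were lower, and Trib3 and Nupr1 (2 of the 4) passed in the authors' deposited table at 0.05, with a median log2 fold change of −1.28, against −1.40 over the 213 lower genes of the table and −1.15 over all its genes. Vldlr was at 5.55, 6.05 and 7.16 CPM in the gigantol and 23.8, 9.97 and 8.50 CPM in the vehicle livers, with no overlap, and its FDR in the authors' deposited table was 0.186. Standard members of this response, such as Asns, Chac1, Ddit3 and Fgf21, were not analysed here. The same holds for all 22 genes of the unfolded protein response, the 7 around eIF2α phosphorylation and the 14 NRF2 targets.

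Insulin and FOXO responsive genes had 6 of 24 analysed here, the most by number after the PPARα list, 5 lower and 1 higher (Cdkn1a). In the authors' deposited table the 5 lower ones had an FDR under 0.05, and the list's median log2 fold change there was −1.36. Beside Trib3 and Txnip they were Irs2, an insulin receptor substrate, at 4.71, 19.9 and 10.5 CPM against 46.4, 28.6 and 31.5 CPM, and G6pc, which releases glucose from its phosphate, at 74.6, 294 and 123 CPM against 632, 443 and 425 CPM. The fifth was Igfbp1, a binding protein that insulin represses, at 69.4, 109 and 195 CPM against 1122, 431 and 309 CPM. In contrast to Ddit4 and Trib3, gigantol replicate 2 was the highest gigantol liver for Irs2 and G6pc. Of the 21 genes of glucose sensing by ChREBP and MondoA, 2 were analysed here, Txnip and G6pc, both lower and both past 0.05 in the authors' deposited table. Arrdc4, the arrestin most like Txnip in its glucose response, was not analysed here.

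Glucocorticoid responsive genes gave 4 of 19, with Ddit4, Sgk1 and Dusp1 lower and Cdkn1a higher. Sgk1, a kinase induced by glucocorticoids and salt, was at 20.5, 28.3 and 21.4 CPM in the gigantol and 59.5, 47.1 and 48.4 CPM in the vehicle livers, and it alone of the 4 passed in the authors' deposited table (FDR 3.7e-05). Of the 24 p53 targets only Cdkn1a and Ddit4 were analysed here, 1 higher and 1 lower, and neither passed. Cdkn1a was the single gene analysed here of 24 cyclins and CDK inhibitors. Of 21 clock genes it was joined by Arntl, which encodes the core clock activator BMAL1, at 1.55, 3.57 and 2.81 CPM against 1.39, 1.09 and 1.34 CPM (FDR 0.304 in the authors' deposited table). Ier3, a stress-induced early gene that shares a list with Nupr1, was at 0.586 ± 0.199 against 1.47 ± 0.251 CPM (SD, n = 3 each), FDR 0.201 in the authors' deposited table. Ddit4 alone was analysed here of 20 hypoxia genes and of 26 genes of mTORC1 restraint and AMPK, Trib3 alone of the 3 tribbles genes, and Txnip alone of 15 thioredoxin system and arrestin genes. Outside the lists that hold a member, Gadd45b and Hamp were the genes analysed here, both higher, and the authors' deposited table lists FDRs of 0.0850 and 0.000702 for them.

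PPARα targets, the receptor class named in the series title, gave 8 of 30, and Txnip and Trib3 are on that list because both have been tied to PPARα in liver. Of the 8, 6 were lower and 2 higher, with 4 past 0.05 downward (Txnip, Trib3, Acot3 and Cyp4a12b) and 1 upward (Plin4) in the authors' deposited table. Acot3, an acyl-CoA thioesterase, was at 11.7 ± 2.60 against 40.2 ± 4.69 CPM and Plin4, a lipid droplet coat protein, at 13.2 ± 3.21 against 5.87 ± 2.26 CPM (SD, n = 3 each). The cytochrome Cyp4a12b, which hydroxylates fatty acids, stood at 65.9 ± 43.6 against 225 ± 61.7 CPM. The remaining 3 did not pass: Cyp4a31 at 53.5 ± 7.03 against 15.7 ± 15.4 CPM, Cyp4a32 at 206 ± 31.1 against 458 ± 406 CPM, and the fatty acid transporter Cd36 at 14.1 ± 3.56 against 31.1 ± 14.8 CPM. Some Cyp4a hydroxylases are near-identical copies, so the authors' counting could have split reads between such copies. The list's median log2 fold change in the authors' deposited table was −1.13, close to the −1.15 of all its genes.

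**Figure D4:**
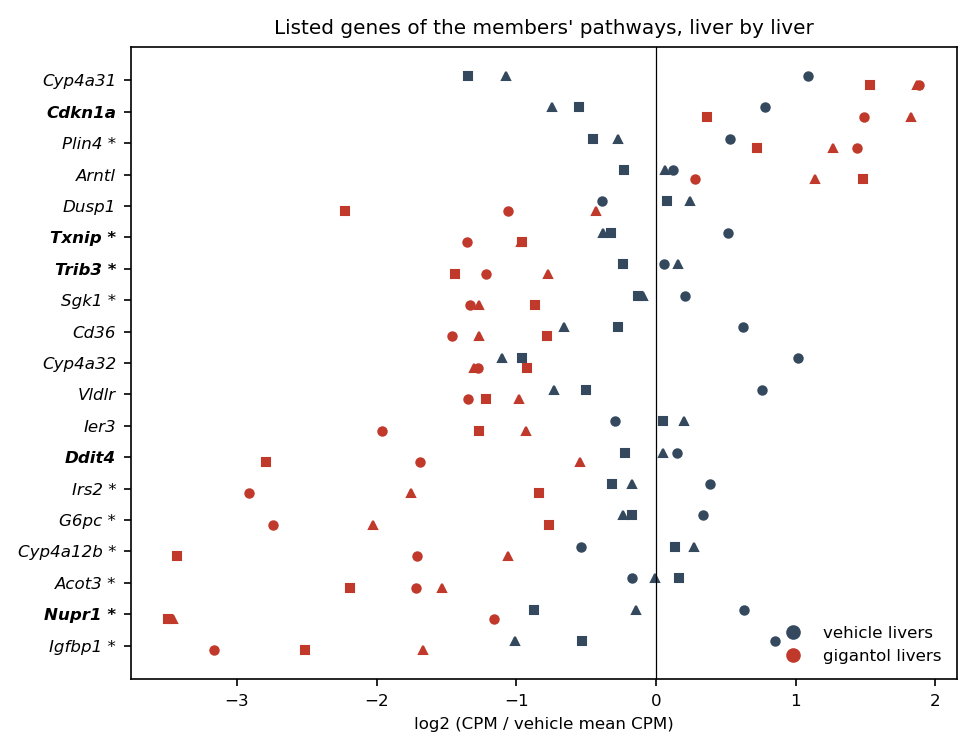
Genes analysed here from the lists that hold a member (bold names are the members, a star marks an FDR under 0.05 in the authors' deposited table). The x axis is log2 of each liver's CPM over the vehicle mean, dark blue for vehicle and red for gigantol livers, with circle, square and triangle for replicates 1, 2 and 3; Dusp1 and Ddit4 show the same order of gigantol livers, and Irs2 and G6pc have the square highest.

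The annotation in the authors' deposited table gives the 5 genes 23 (Ddit4) to 80 (Cdkn1a) gene ontology terms each, none of them held by all 5. Nupr1, Ddit4 and Cdkn1a share the term for p53-mediated intrinsic apoptosis after DNA damage, which 5 of the table genes hold. Trib3 and Cdkn1a are the only 2 table genes with protein kinase inhibitor activity, and they differed in direction. Nupr1 and Ddit4 are the only 2 with negative regulation of glycolysis, and both were lower. Trib3 and Nupr1 share regulation of autophagy with 4 table genes in all holding it. For KEGG, Trib3 is placed in insulin resistance, Ddit4 in mTOR signalling and autophagy, and Txnip in NOD-like receptor signalling.

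How far a single liver carried each difference was followed by leaving out each liver in turn. The limma difference of Trib3 stayed between −1.22 and −0.92 on the log2(CPM + 1) scale and that of Txnip between −1.18 and −0.73, the smallest being without vehicle replicate 1. Nupr1 ranged from −2.07 without gigantol replicate 1 to −1.33 without vehicle replicate 1. Ddit4 ranged from −2.12 without gigantol replicate 3 to −1.07 without gigantol replicate 2, the widest range of the 5 on this scale. Cdkn1a ranged from 0.99 without gigantol replicate 3 to 1.70 without vehicle replicate 1. The ratio of mean CPM, vehicle over gigantol, moved most for Nupr1. That ratio ran from 3.47 without vehicle replicate 1 to 11.1 without gigantol replicate 1, against 2.01 to 4.41 for Ddit4. Cdkn1a stayed higher in all 6 runs; where no gigantol liver reaches a vehicle liver, as for the other 4 genes, leaving out a liver cannot turn the sign.

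**Figure D5:**
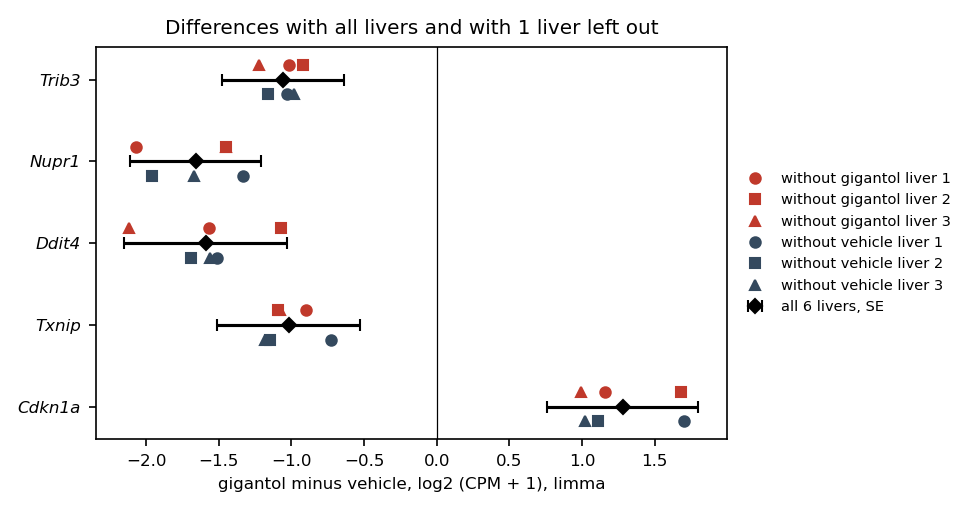
limma differences between gigantol and vehicle livers on the log2(CPM + 1) scale (x axis) for the 5 genes. Diamonds with SE bars use all 6 livers and coloured symbols leave out 1 liver each. On this scale Ddit4 moves most, from −2.12 to −1.07, and no symbol crosses 0.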

How the data were processed

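Stranded libraries were made from liver RNA after removal of rRNA, per the labels' protocols. The submitters' processing notes name fastp, HISAT2 and DESeq2 1.16.1 without a role, and the human build GRCh38, although all gene IDs are mouse; counter, annotation and filters: not given in the sources used here. Nothing in the header names the deposited CPM columns as such. The unit was read from the values, which in each library were whole multiples of 1 step (100% of values up to 200 reads within 0.1 reads); the steps gave depth and Poisson intervals. The log2 fold changes and the p-values with their FDR were deposited by the authors beside them; the FDR over the p of the first gene gave 13192 adjusted genes. Over 208 genes with a mean of 1 CPM or more and with reads in both groups, the authors' log2 fold changes differed from log2 ratios of mean CPM by a median of 0.004.

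Here, limma 3.58.1 (R 4.3.3; trend and robust moderation, two-sided) was fitted to log2(CPM + 1) of the 201 table genes with at least 1 CPM in 3 libraries, with Benjamini-Hochberg adjustment over 13192 genes, those without a limma p ranked last. The code of the fit was also run on simulated data, and nothing is read from that run here. The variance moderation used selected genes alone. The text names the 5 members, the 3 nearest profiles of each and the listed genes of their pathways. Members, lists and motifs were chosen with earlier results of these data known. Alternatives were 2 pseudocounts, 2 filters, plain moderation, a replicate block and leaving out each liver.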

Additional observations from a re-analysis of the deposited data

How the results depend on the processing

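None of the 5 members passed 0.05 adjusted over 13192 genes in any limma run tried (12 alternatives for each gene, 11 for Nupr1, which a mean of at least 5 CPM removed), the smallest limma adjusted p being 0.118 for Nupr1 with the replicate block. With smaller pseudocounts Nupr1 went from −1.66 to −2.42 on the log2 scale. The number of table genes past that threshold moved more: 9 in the fit described, 4 with no filter, 3 with a mean of at least 5 CPM, 14 with the replicate block and 1 to 10 with 1 liver left out (1 without gigantol replicate 2 and 1 without vehicle replicate 1, the latter not among the 9, 2 without gigantol replicate 1 and 4 without gigantol replicate 3). The cause was not tested. Livers with the same number in their titles did not deviate together in all 3 pairs (correlations across 201 genes of 0.13, 0.15 and −0.10), so the numbers were not taken as pairs. The 2 edgeR alternatives on worked-out reads were not run, since the vehicle columns did not pass the check by which reads count as recovered. The steps of those columns were still used for depth and Poisson intervals.

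Low read numbers limit Nupr1 most, at 11 and 13 reads in gigantol replicates 2 and 3. With 3 livers a group, an exact permutation test of 1 gene could not go below p = 0.10.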
